A study of Mus musculus with 8 samples.

Results

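The 10 genes described here encode the enzymes that hydroxylate collagen chains inside the cell and crosslink the finished fibres outside it: the lysyl oxidases Lox, Loxl1, Loxl2 and Loxl3, the lysyl hydroxylases Plod1, Plod2 and Plod3, and the catalytic alpha subunits of prolyl 4-hydroxylase, P4ha1, P4ha2 and P4ha3. They were taken by name from the gene column of a table of 34535 transcript isoforms with 24356 gene symbols, where they have 14 rows, all of them tested by the authors. The study sorted adipocyte precursors, the mesenchymal skin cells that can become fat cells, from the dermis of male C57/Bl6 mice aged 7 weeks, and sequenced their mRNA. Of the 8 samples, 6 came from nonwounded dorsal skin and 2 from the wound bed on day 5 after wounding, and the question behind the comparison is how these cells differ between the wound bed and undisturbed skin. Both groups share strain, sex and age, and the labels name no transgene or further agent. The labels do not say how many animals each sample came from, nor which surface proteins were used for sorting.

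Collagen chains are modified in the endoplasmic reticulum before they fold. Prolyl 4-hydroxylase, a tetramer of alpha subunits with the disulphide isomerase P4hb, makes the 4-hydroxyproline that keeps the triple helix stable at body temperature, and lysyl hydroxylases make the hydroxylysine that carries sugars and takes part in crosslinks. Both use iron, oxygen, 2-oxoglutarate and ascorbate. Lysyl oxidases are secreted copper enzymes that turn lysine and hydroxylysine side chains into aldehydes, from which the covalent crosslinks of collagen and elastin form. In skin, crosslinks that start from hydroxylysine in the chain ends (telopeptides) are associated with scar tissue.

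The table gives a single FPKM per isoform and group, that is, fragments scaled to transcript length and library depth as the authors estimated them over all samples of the group. Values per sample are lacking, so SDs cannot be given, the overlap of samples between groups could not be seen, and the order of genes within a group has no error attached. The depth of each sample is unknown. An isoform is called here when its Benjamini-Hochberg adjusted p, computed over all 17775 tested isoforms from the p-values of the authors' deposited table (Cuffdiff), is under 0.05. The only spread between samples that enters these p-values is that of the samples sequenced, which may be technical. Since the samples are bulk RNA, a larger number of cells of a type and more RNA per cell cannot be told apart. Fold changes are wound bed over nonwounded without a pseudocount. Over the 12522 isoforms whose FPKM reached 1 or more in each group, the log2 fold changes had a median of -0.11, so a change relative to this shift is 0.11 higher than the values printed below.

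Of the 10 genes, 3 have several isoforms in the table, and for Plod2 and P4ha2 the isoforms differ in their coding sequence. All 14 isoforms could be matched to a transcript of the GENCODE annotation of GRCm38. The alternative exons are shown because the results below separate the isoforms that carry them. The exon is in capitals and 15 bases of the neighbouring exons on each side are in lower case, read 5′ to 3′ on the coding strand.
Plod2 NM_001142916, exon 14, chr9:92601985-92602047: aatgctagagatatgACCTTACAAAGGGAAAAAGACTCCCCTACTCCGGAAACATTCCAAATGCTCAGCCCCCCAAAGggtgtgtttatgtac
P4ha2 NM_001136076, exon 13, chr11:54126238-54126297: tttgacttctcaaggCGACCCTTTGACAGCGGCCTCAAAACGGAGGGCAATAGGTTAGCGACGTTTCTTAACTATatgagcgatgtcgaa
P4ha2 NM_011031, exon 13, chr11:54126346-54126411: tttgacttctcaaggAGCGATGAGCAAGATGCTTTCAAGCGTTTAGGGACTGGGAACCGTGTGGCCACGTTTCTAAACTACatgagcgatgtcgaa
The Plod2 exon holds 63 bases, or 21 codons, and NM_011961 goes without it, so that the coding sequences are 758 and 737 codons long. The form with the exon is the long form of lysyl hydroxylase 2, known as the enzyme of telopeptide lysines. The P4ha2 isoforms use either an exon of 60 bases or one of 66 bases between the same neighbours, for coding sequences of 535 and 537 codons. The GENCODE transcripts matched to the Lox isoforms share a coding sequence of 411 codons and differ in their untranslated ends. NM_010728 and NM_001286181 of Lox are paired with the same GENCODE transcript, so their difference is not described here.

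Of the 14 isoforms, 7 in 6 genes were called higher in the wound bed and 0 were called lower, against a background of 5.66% higher and 7.25% lower among all tested isoforms. At an unadjusted p under 0.05 in the authors' deposited table, 8 of the 14 were higher and 0 lower, where 10.9% and 16.4% of all tested isoforms were. Counted by the major isoform of each gene, the tested isoform with the most FPKM over both groups, 5 of 10 genes were called higher (Lox, Plod1, Plod2, Plod3 and P4ha3) and 0 lower, where 7.01% and 8.67% of the 13718 genes with a tested isoform were called. The remaining 5 genes, Loxl1, Loxl2, Loxl3, P4ha1 and P4ha2, were not called by their major isoform, although the second isoform of P4ha2 was. The median log2 fold change was 0.88 over the 10 major isoforms and -0.14 over those of all tested genes. The 10 genes were chosen with results of these data in view, and these counts describe them without a test of the group.

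**Figure D1:**
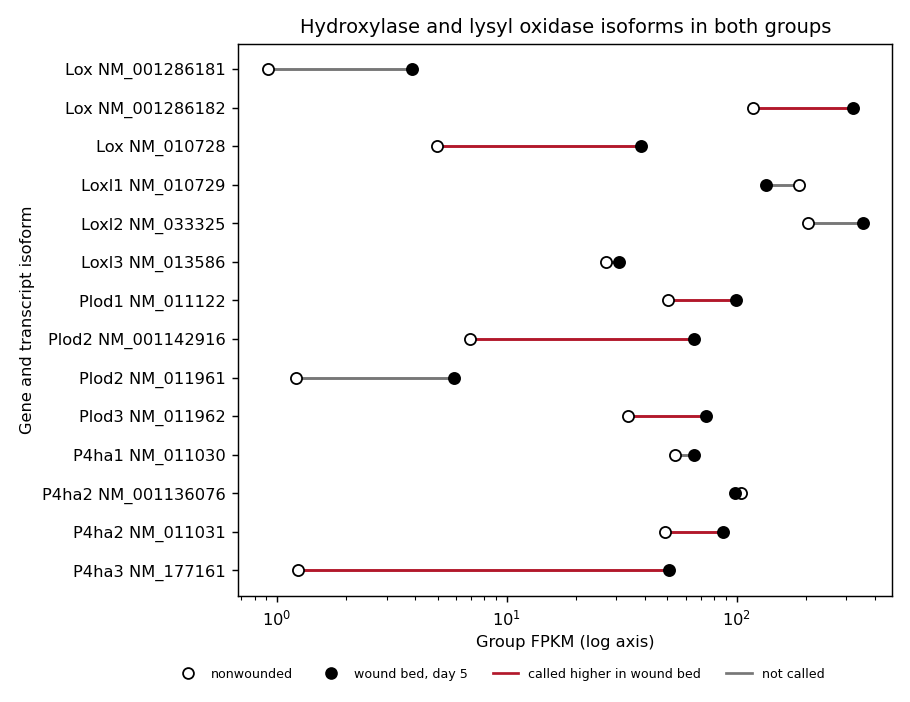
Group FPKM (horizontal log axis) of the 14 isoforms of the 10 genes, an open point for nonwounded and a filled point for the wound bed, joined in red where called higher in the wound bed and in grey where not called. P4ha3 has the longest line (1.24 to 50.7), while the filled point lies left of the open one for Loxl1 (186 to 134) and, slightly, for P4ha2 NM_001136076 (104 to 98.2).

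Of the 4 lysyl oxidase genes, Lox was called higher and the other 3 were not called, although the differences between their changes were not tested. Lox, on chromosome 18 from 52516067 to 52529867 in GRCm38, encodes the founding enzyme of the family, which acts on collagen and elastin. Its isoform NM_001286182, which held most of the gene's signal, stood at an FPKM of 118 in nonwounded precursors and 320 in the wound bed, a 2.70-fold rise (log2 1.44, Benjamini-Hochberg adjusted p = 0.00428 from the authors' test). NM_010728 stood at 4.98 and 38.3, a 7.70-fold rise (Benjamini-Hochberg adjusted p = 0.0294 from the authors' test). The third, NM_001286181, stood at 0.915 and 3.88 and was not called (Benjamini-Hochberg adjusted p = 0.667 from the authors' test). All 3 isoforms had a higher value in the wound bed, and the sum of their FPKM went from 124 to 362. The share of NM_010728 in that sum was 4.01% in nonwounded skin and 10.6% in the wound bed, a shift that was not tested.

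Loxl2, an oxidase with scavenger receptor domains that also acts on basement membrane collagen, was the most abundant of the 10 genes in nonwounded precursors at 205 and stood at 354 in the wound bed (log2 0.79). This did not pass the threshold (Benjamini-Hochberg adjusted p = 0.124 from the authors' test). Loxl1, which is required for elastic fibre renewal, stood at 186 in nonwounded skin and 134 in the wound bed (log2 -0.47, Benjamini-Hochberg adjusted p = 0.250 from the authors' test), one of 2 isoforms among the 14 with a lower value in the wound bed. Loxl3 was the lowest of the 4 oxidases in either group, with 26.9 in nonwounded skin and 30.8 in the wound bed (log2 0.19, Benjamini-Hochberg adjusted p = 0.613 from the authors' test). By summed FPKM the order in nonwounded skin was Loxl2, Loxl1, Lox and Loxl3, and in the wound bed Lox, Loxl2, Loxl1 and Loxl3. Lox made up 22.9% of the summed FPKM of the 4 genes in nonwounded skin and 41.1% in the wound bed, and Loxl1 34.4% and 15.2%. The sum of these 4 genes was 543 and 881, a 1.62-fold difference without a test. Loxl4, given below with the partner genes, is not part of these sums and shares.

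All 3 lysyl hydroxylase genes rose by their major isoform, the only one of the 3 enzyme families here in which every gene was called. Plod2, which encodes lysyl hydroxylase 2 and lies on chromosome 9 from 92542223 to 92608428 (GRCm38), rose most: the long isoform NM_001142916 stood at 6.93 in nonwounded precursors and 65.3 in the wound bed, a 9.43-fold rise (log2 3.24, Benjamini-Hochberg adjusted p = 0.000882 from the authors' test, the smallest that these p-values can give). The short isoform NM_011961, without the 63-base exon printed above, stood at 1.21 and 5.88 and was not called (log2 2.28, Benjamini-Hochberg adjusted p = 0.357 from the authors' test). The long isoform accounted for 85.2% of the gene's FPKM in nonwounded skin and 91.7% in the wound bed. The exon-containing form was the main form in both groups, and the change in its share was not tested.

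Plod1, the gene of lysyl hydroxylase 1, which acts on lysines of the helical part, stood at 50.3 and 99.1, a 1.97-fold rise (log2 0.98, Benjamini-Hochberg adjusted p = 0.00428 from the authors' test). Plod3 encodes lysyl hydroxylase 3, which also transfers sugars to hydroxylysine, and stood at 33.7 and 73.7, a 2.19-fold rise (log2 1.13, Benjamini-Hochberg adjusted p = 0.000882 from the authors' test). In GRCm38 Plod1 lies on chromosome 4 from 147909753 to 147936767 and Plod3 on chromosome 5 from 136987019 to 136996648. In nonwounded skin Plod2 was the lowest of the 3, with 8.83% of their summed FPKM, and in the wound bed it held 29.2%, close to the 30.2% of Plod3. The summed FPKM of Plod2 was 0.162 times that of Plod1 in nonwounded skin and 0.719 times in the wound bed. The sum of the family went from 92.1 to 244, a 2.65-fold difference.

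**Figure D2:**
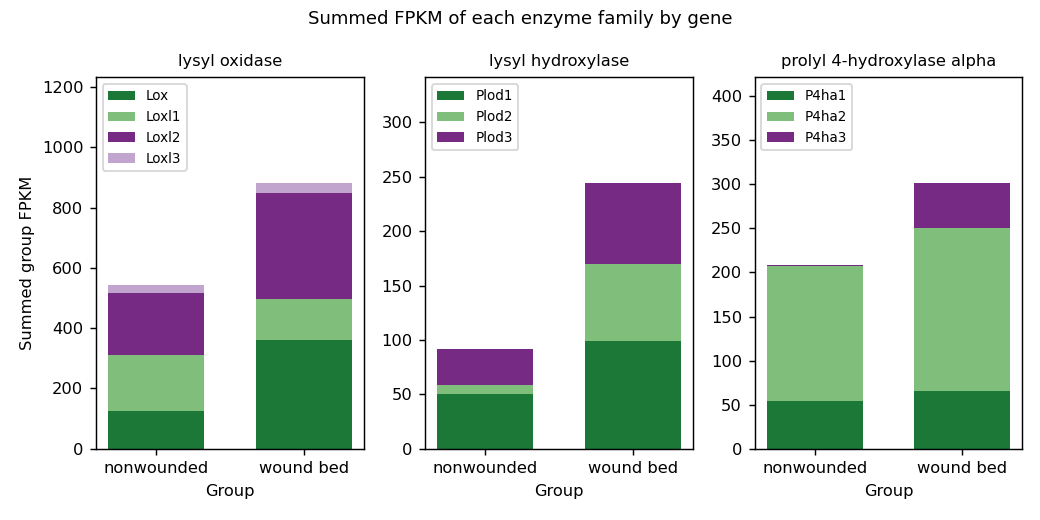
Summed group FPKM (vertical axes from 0, each panel with its own scale) of the lysyl oxidase, lysyl hydroxylase and prolyl 4-hydroxylase alpha genes in nonwounded skin and the wound bed, stacked by gene, with no error bars because the table has no value per sample. The Plod2 segment goes from 8.14 to 71.2, and the P4ha3 segment, barely visible at 1.24 in nonwounded skin, reaches 50.7.

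Among the prolyl 4-hydroxylase alpha subunit genes, P4ha3 was the one called by its major isoform. It encodes the alpha III subunit and lies on chromosome 7 from 100285520 to 100319699 (GRCm38). It was the lowest of the 10 genes in nonwounded precursors, at an FPKM of 1.24, and stood at 50.7 in the wound bed, a 40.9-fold rise (log2 5.36, Benjamini-Hochberg adjusted p = 0.000882 from the authors' test). Its level was above 19.5% of tested isoforms in nonwounded skin and above 92.7% in the wound bed. Among those 12522 isoforms, P4ha3 ranked 16 from the top by log2 fold change, and with a pseudocount of 1 the log2 fold change of P4ha3 was 4.53. P4ha1, which encodes the widespread alpha I subunit, stood at 53.7 and 65.4 (log2 0.28, Benjamini-Hochberg adjusted p = 0.463 from the authors' test).

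P4ha2, the gene of the alpha II subunit, was the most abundant of the 3 in both groups, with a summed FPKM of 153 in nonwounded skin and 185 in the wound bed. Of its isoforms 1 was called. NM_011031, with the 66-base exon, rose from 49.0 to 86.8 (log2 0.83, Benjamini-Hochberg adjusted p = 0.0315 from the authors' test). NM_001136076, with the 60-base exon, stood at 104 and 98.2 and was not called (log2 -0.08, Benjamini-Hochberg adjusted p = 0.845 from the authors' test). The isoform with the 66-base exon made up 32.0% of the gene's FPKM in nonwounded skin and 46.9% in the wound bed, and the difference between the isoforms was not tested. The sign of the major isoform's change turns when centred on the shift of all isoforms (0.026) or summed over isoforms (0.27).

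P4ha3 took up a larger part of the alpha subunit transcripts in the wound bed, as a description without a test. Its share of the summed FPKM of the 3 genes was 0.595% in nonwounded skin and 16.8% in the wound bed, while that of P4ha2 was 73.6% and 61.5% and that of P4ha1 25.8% and 21.7%. The sum itself was 208 and 301, a 1.45-fold difference. P4hb, which encodes the beta subunit that the 3 alpha subunits share, stood at 526 and 926 (log2 0.82, Benjamini-Hochberg adjusted p = 0.136 from the authors' test) and was not called. Its FPKM was 2.53 times the summed alpha FPKM in nonwounded skin and 3.08 times in the wound bed.

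**Figure D3:**
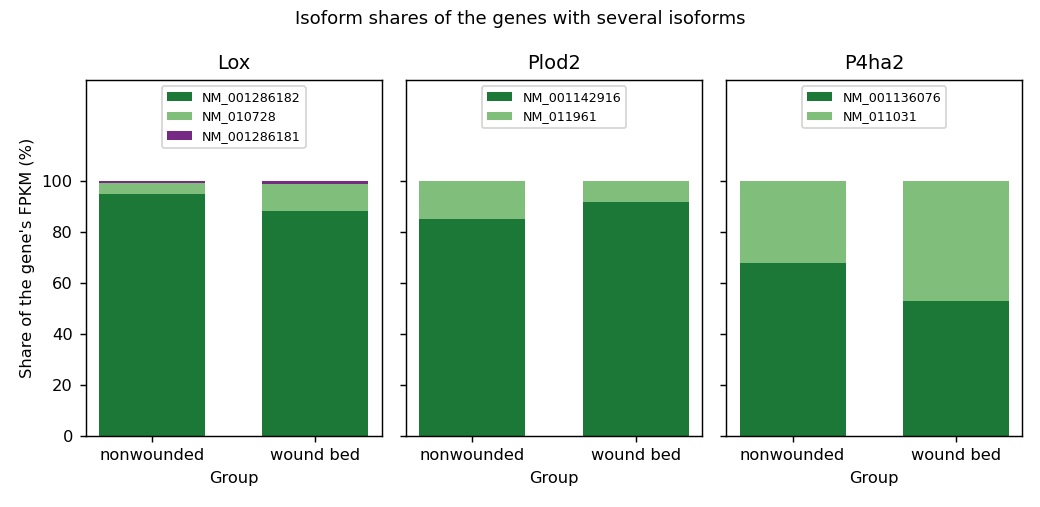
Share of each isoform in its gene's summed group FPKM (vertical axis, percent) in nonwounded skin and the wound bed for Lox, Plod2 and P4ha2. NM_011031 of P4ha2, with the 66-base exon, goes from 32.0% to 46.9%, and NM_001142916 of Plod2, with the 63-base exon, from 85.2% to 91.7%.

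Across all 10 genes the summed FPKM in nonwounded skin ran from 1.24 (P4ha3) to 205 (Loxl2), and in the wound bed from 30.8 (Loxl3) to 362 (Lox). The 2 genes lowest in nonwounded skin, P4ha3 and Plod2, were those with the largest log2 fold changes. Loxl3, next above them at 26.9, was not called. The nonwounded value is the denominator of a fold change, so this level and the change are not independent. In the authors' deposited table the p-values of the 7 isoforms called ran from 5e-05 to 0.0035, and the nearest isoform not called was that of Loxl2 at 0.0251. The largest p among all calls of that table was 0.00645.

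Promoter sequence in RefSeq (GRCm38.p6) was at hand for 5 of the 10 genes: Plod1, Plod3, P4ha1, P4ha2 and P4ha3. The 250 bases before the start site were searched on both strands for ACGTG and GCGTG, the cores of the element that hypoxia-inducible factors bind, and for TGANTCA, the AP-1 element. The prolyl 4-hydroxylase promoters are printed because the gene with the largest change and the 2 whose major isoform was not called can be compared in them. Matches are in capitals, read 5′ to 3′ on the coding strand, and a match on the opposite strand appears as CACGT or CACGC. No 2 matches overlapped.
P4ha3, chr7:100285270-100285519, plus strand: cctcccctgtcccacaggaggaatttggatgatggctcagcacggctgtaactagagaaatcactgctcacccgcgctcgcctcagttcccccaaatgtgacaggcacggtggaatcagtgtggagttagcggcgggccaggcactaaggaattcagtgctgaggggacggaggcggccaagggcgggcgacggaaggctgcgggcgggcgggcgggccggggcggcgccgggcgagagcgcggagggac
P4ha1, chr10:59323046-59323295, plus strand: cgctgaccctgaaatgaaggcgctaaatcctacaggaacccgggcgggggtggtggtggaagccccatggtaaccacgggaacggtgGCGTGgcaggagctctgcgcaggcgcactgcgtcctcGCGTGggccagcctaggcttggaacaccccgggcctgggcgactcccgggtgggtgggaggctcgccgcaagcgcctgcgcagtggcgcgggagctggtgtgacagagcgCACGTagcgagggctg
P4ha2, chr11:54100674-54100923, plus strand: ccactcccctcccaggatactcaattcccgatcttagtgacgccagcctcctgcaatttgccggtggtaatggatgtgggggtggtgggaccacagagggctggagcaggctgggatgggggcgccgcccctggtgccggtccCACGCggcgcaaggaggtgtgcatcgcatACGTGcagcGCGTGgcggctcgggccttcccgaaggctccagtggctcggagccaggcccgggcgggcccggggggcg
The P4ha3 window held 0 matches to the 3 motifs. The P4ha1 window held 1 ACGTG, starting 16 bases before the start site, and 2 GCGTG, and the P4ha2 window held 1 ACGTG, 78 bases before it, and 2 GCGTG. Plod3 had 1 ACGTG and 3 GCGTG, Plod1 had 1 GCGTG, and TGANTCA was found in 0 of the 5 windows. Among 32851 promoter windows of the same length 16.6% held ACGTG, 28.2% GCGTG and 6.75% TGANTCA. Either of ACGTG and GCGTG was held by 38.6% of these windows. The GC content of the 5 windows lay between 55.6% and 70.0%, above the median of 52.4% of all windows. Of the 4 genes with a match, Plod1 and Plod3 were called by their major isoform and P4ha1 and P4ha2 were not, and P4ha3, without a match, was called.

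A list of oxygen response genes, whose proteins include further 2-oxoglutarate enzymes, had 5 of 12 members called higher and 0 lower by their major isoform, where 7.01% and 8.67% of all tested genes were called, with a median log2 fold change of 1.77. At an unadjusted p under 0.05 there were 6 higher and 1 lower, where 13% and 18.3% of all tested genes were. The 5 called were Hif1a, the oxygen-regulated transcription factor gene, which stood at 19.3 and 100 (log2 2.38), and Slc2a1 (log2 3.06), Pdk1 (1.51), Bnip3 (1.11) and Ndrg1 (3.85). Only at the unadjusted threshold were Egln3 higher and Hif1an lower, the latter at 7.27 in nonwounded skin and 4.35 in the wound bed (log2 -0.74). The Egln prolyl hydroxylase genes of the oxygen-sensing pathway were not called: Egln1 had a log2 fold change of 0.40, Egln2 of -0.12 and Egln3 of 3.31, the last at 0.410 and 4.06. Also not called were Car9 (0.0461 in nonwounded skin and 1.04 in the wound bed, log2 4.50), Ankrd37 (0.847 and 3.48, log2 2.04) and Vegfa (log2 0.70). The median of 1.77 includes these uncalled genes, some of them with low values in nonwounded skin, and no pseudocount was applied to this list.

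Of 37 partner genes, listed for the rest of the collagen biosynthesis pathway and for related enzymes, 33 had a tested isoform. By their major isoform 2 were called higher and 3 lower, with a median log2 fold change of 0.21. These counts are near the background of 7.01% higher and 8.67% lower among all tested genes. The prolyl 3-hydroxylase gene P3h2 (0.403 in nonwounded skin and 0.614 in the wound bed), the procollagen C-proteinase gene Tll2 (0.0563 and 0.0369) and the ascorbate transporter gene Slc23a1 (0.265 and 0.123) were not tested by the authors. Among other hydroxylase and oxidase genes 0 of 7 tested were called. At an unadjusted p under 0.05 in the authors' deposited table there were 3 higher and 1 lower. By that threshold 13% of all tested genes were higher and 18.3% lower. The higher ones were P4hb and the prolyl 3-hydroxylase genes P3h1 (log2 0.59) and P3h3 (0.60). The lower one was P4htm, the gene of a transmembrane prolyl 4-hydroxylase listed here as a related enzyme, at 9.27 and 3.36 (log2 -1.46). The list also held Loxl4 (10.3 in nonwounded skin and 12.5 in the wound bed as isoform sums) and Crtap (log2 0.46), a helper gene of the prolyl 3-hydroxylases. Of the collagen galactosyltransferase genes, Colgalt1 had a log2 fold change of 0.61 and Colgalt2, at 1.33 and 0.444, of -1.58, both without a call. Among 6 chaperone genes 0 were called. At an unadjusted p under 0.05, 1 was higher and 2 lower, where 13% and 18.3% of all tested genes were. The lower ones were the prolyl isomerase genes Fkbp14 (82.7 and 55.3, log2 -0.58) and Fkbp7 (272 and 184, log2 -0.56). Serpinh1, which encodes the collagen chaperone Hsp47, had the highest FPKM of them, 1506 and 1781 by its major isoform (log2 0.24), and Fkbp10, a prolyl isomerase gene whose product acts with lysyl hydroxylase 2, stood at 103 and 163 (log2 0.66, Benjamini-Hochberg adjusted p = 0.0820 from the authors' test).

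The calls lay in propeptide processing and among partners of lysyl oxidase. Adamts14, a procollagen N-proteinase gene, rose from 5.73 to 19.9 (log2 1.80, Benjamini-Hochberg adjusted p = 0.000882 from the authors' test). Pcolce2, which encodes an enhancer of the C-proteinase, fell by 3.14 on the log2 scale, from 344 to 39.2 (Benjamini-Hochberg adjusted p = 0.000882 from the authors' test), and the C-proteinase gene Tll1 fell from 11.4 to 4.69 (log2 -1.28, Benjamini-Hochberg adjusted p = 0.000882 from the authors' test). Bmp1, the main C-proteinase gene, whose product also activates the lysyl oxidase precursor, had a log2 fold change of 0.58 without a call. Efemp2, the gene of fibulin 4, which binds lysyl oxidase and tropoelastin, rose from 160 to 314 (log2 0.97, Benjamini-Hochberg adjusted p = 0.00306 from the authors' test). Fbln5, the gene of fibulin 5, which acts with Loxl1 in elastic fibres, fell from 40.9 to 15.6 (log2 -1.39, Benjamini-Hochberg adjusted p = 0.000882 from the authors' test). Of the copper and ascorbate supply genes, Atp7a (log2 0.57), Slc31a1 (0.56), Atox1 (-0.31) and Slc23a2 (-0.17) were not called.

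Of 12 substrate genes, 9 had a usable value, 3 were called higher and 1 lower by their major isoform, where 7.01% and 8.67% of all tested genes were called, with a median log2 fold change of 0.70. Col12a1 stood at 3.65 and 114, Col11a1 at 0.139 and 2.98, and Col5a3 at 94.1 and 289, all called higher, while Eln, the gene of elastin, fell from 716 to 221 (Benjamini-Hochberg adjusted p = 0.0110 from the authors' test). Col1a1, Col1a2 and Col3a1, the main collagens on which these enzymes act, were marked by the authors as having more fragments than could be processed and had no usable value, as did the Lox partner gene Fn1. The ratio of enzyme to main substrate therefore could not be formed.

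**Figure D4:**
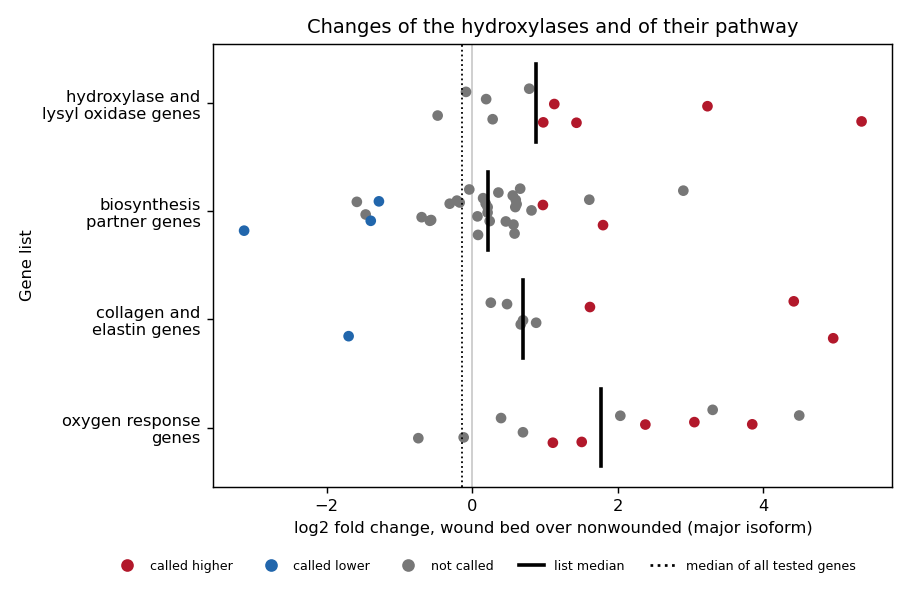
Log2 fold change of the major isoform, wound bed over nonwounded (horizontal axis), 1 point per gene, for the 10 hydroxylase and lysyl oxidase genes, the partner genes, the collagen and elastin genes and the oxygen response genes, with red for called higher, blue for called lower, grey for not called, a bar at each list's median and a dotted line at the median of all tested genes (-0.14). The medians are 0.88, 0.21, 0.70 and 1.77 from top to bottom, and 5 of the 10 hydroxylase and lysyl oxidase genes are red and 0 blue.

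Marker genes were read in the same table, with calls by their major isoform. Of all tested genes 7.01% were called higher and 8.67% lower in this way. At an unadjusted p under 0.05, 13% were higher and 18.3% lower. The precursor marker Pdgfra had summed FPKM of 80.9 in nonwounded skin and 91.8 in the wound bed, Cd34 1104 and 679, and Ly6a 2691 and 1576, and 1 of 7 precursor markers, Cd24a, was called lower. The contractile fibroblast markers Acta2 and Tagln were called higher, and the 3 markers of that list summed to 3.81 and 49.5. Of 8 macrophage and monocyte markers 6 were called higher (7 differed at an unadjusted p under 0.05) and 0 lower, and they summed to 221 and 693, most of it Lyz2. The 4 neutrophil markers in the table summed to 1.49 and 97.1 with 0 called (1 at an unadjusted p under 0.05), and Elane was listed at 0 in both groups. Keratinocyte markers summed to 13.6 and 30.9, with 2 of 4 called higher. Markers of mast cells (58.2 and 6.03), erythroid cells (3080 and 176), skeletal muscle (59.3 and 4.23), mature adipocytes (37.5 and 2.39), endothelium (88.7 and 25.2), pericytes (59.3 and 16.8) and nerve (2.84 and 0.312) summed lower in the wound bed. Called lower were 4 of 4 mast cell, 3 of 4 erythroid, 1 of 3 tested skeletal muscle and 1 of 4 mature adipocyte markers. Of 2 tested pericyte markers 1, Kcnj8, was called lower. Among 4 tested endothelial markers and 1 tested nerve marker 0 were called. The endothelial sum was mostly Tek (83.1 and 18.4), while Pecam1, Cdh5 and Kdr had log2 fold changes of 0.43, 0.58 and 0.11 as isoform sums, and the pericyte sum was mostly Kcnj8 (58.3 and 14.9), while Rgs5 and Cspg4 had 1.03 and 0.57. The part of these cells in the values of the 10 genes was not tested.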

How the data were processed

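mRNA libraries (Illumina TruSeq) of sorted dermal adipocyte precursors were compared between 6 nonwounded samples and 2 samples of the day 5 wound bed, grouped by their titles. TopHat2 2.0.2, Cuffdiff 2.0.2 and mm9 are named per the submitters' processing notes, and the annotation is not given in the sources used here. The authors deposited 1 FPKM per isoform and group and an unadjusted p-value of the comparison. The number of per-sample columns left unused was 0. A locus end of each of the 10 genes lay within 100 bases of its GRCm38 position, although mm9 is named, and coordinates printed are those of GRCm38 in GENCODE M21 or RefSeq.

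Benjamini-Hochberg adjustment over 17775 tested isoforms gave the same calls as the authors' significance column for all 34535 isoforms, and the procedure was tested on simulated data. The deposited fold change column runs nonwounded over wound bed and was recomputed. Of the gene symbols outside these lists, some have been turned into dates by a spreadsheet. Isoforms with the status for too many fragments were left out, and gene sums include isoforms that the authors did not test. The alternatives were stricter and looser thresholds, minimums on FPKM, a pseudocount, centring and gene sums. The genes and lists were chosen with earlier results of these data known. The text names all 10 genes with every isoform, the called genes of each list, those without a usable value, and other list members as examples chosen after their values were seen. Python 3.11.15, numpy 2.4.6, pandas 2.3.3, scipy 1.17.1 and matplotlib 3.10.9 were used.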

Additional observations from a re-analysis of the deposited data

How the results depend on the processing

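No paired analysis was possible because the table holds 1 value per group, and for the same reason no replicate could be left out. The count of genes called higher (5 of 10) stayed within 1.5 times under every other threshold, filter and adjustment tried, and counting any called isoform, an alternative added after seeing the data, gave 6. The count called lower was 0 throughout. Plod1 (log2 0.98) was no longer called where the log2 fold change had to reach 1. Centring on the median moved the median of the 10 genes to 0.99 and that of the partner genes to 0.32, by construction. For P4ha2 the sign turned with centring (0.026) and with the sum over isoforms (0.27). The partner genes called higher numbered 4 when the adjusted p had to be under 0.1 and 1 when the log2 fold change had to reach 1. At an adjusted p under 0.01, 642 isoforms of the whole table were higher and 823 lower, against 1006 and 1288. With a pseudocount of 1 the log2 fold change of Plod2 was 3.06 and that of P4ha3 4.53. A value was taken as the same when it moved by at most 0.1 on the log2 scale, since there is no spread between samples to set it against.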

Other observations

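For 3 genes of the lists beside the 10, chosen after their values were seen, the isoforms differed in direction or in size of log2 fold change. For Postn, which encodes periostin, a matrix protein that binds the lysyl oxidase activator Bmp1, isoform NM_001198765 fell from a group FPKM of 799 in nonwounded skin to 72.5 in the wound bed (log2 -3.46, Benjamini-Hochberg adjusted p = 0.000882 from the authors' test), while NM_001198766 stood at 819 and 2502 without a call (log2 1.61, Benjamini-Hochberg adjusted p = 0.252 from the authors' test), and the sum over isoforms was 1687 and 2642. For Col6a3, a chain gene of microfibrillar collagen, the minor isoform NM_001243008 stood at 3.70 and 75.0 and was called (log2 4.34, Benjamini-Hochberg adjusted p = 0.000882 from the authors' test), and the major one, NM_001243009, stood at 247 and 401 without a call. P3h1, the prolyl 3-hydroxylase gene, had an isoform, NM_019783, at 11.9 and 0.397 without a call (log2 -4.90, Benjamini-Hochberg adjusted p = 0.297 from the authors' test) beside the major one at 54.8 and 82.7. A further minor isoform of P3h1, NM_019782, went the other way, at 2.18 and 10.4 without a call (log2 2.25, Benjamini-Hochberg adjusted p = 0.493 from the authors' test). The differences between the isoforms of these genes were not tested.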
